A study of Mus musculus with 12 samples.

Results

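Rhox6, Rhox9 and Rhox13 belong to the Rhox family, a cluster of homeobox genes on the mouse X chromosome. They were chosen by name, as all probe sets of the deposited array values that the platform annotation assigns to 1 of these 3 symbols. This gave 3 probe sets, 1 for each gene, among 37661 probe sets in all, which cover 16509 genes by a symbol of their own. The 3 symbols themselves had been picked because they were higher in RARaKO than in WT cells given vehicle, so that contrast is described here and not tested.

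Rhox genes encode homeodomain transcription factors that are expressed mainly in the testis, epididymis, ovary and placenta. Rhox6 and Rhox9, first described as Psx1 and Psx2, are expressed in the placenta and in germ cells, and Rhox13 is expressed in germ cells. Rhox5, first described as Pem, is the best studied member and is known as an androgen-responsive gene of Sertoli cells. DNA methylation at promoters is known to keep Rhox genes silent in many somatic tissues. Retinoic acid acts through nuclear receptors, among them the receptor encoded by Rara, and drives germ cells into meiosis.

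The study used 12 Affymetrix arrays of F9 cells, which come from a mouse teratocarcinoma and resemble early embryonic cells. The 4 groups of 3 arrays were RARaKO cells in all-trans retinoic acid (atRA, 1 µM), WT cells in atRA, RARaKO cells in ethanol vehicle (0.1%) and WT cells in vehicle. RARaKO stands for a knockout of Rara, and how it was made is not stated in the sources used here. Every group, the vehicle groups included, was in cycloheximide, an inhibitor of protein synthesis, at 1 µg/ml for 8 h in all, of which the last 7.5 h were with atRA or vehicle. Arrays are numbered by the set (2, 3 or 4) in their labels. No source used here says whether the sets were separate cultures, and a p-value then speaks only of array-to-array spread, which could be technical.

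The values are expression on a log scale, taken as log2, and the median of each probe set's 12 values is 0. They show differences between arrays but no absolute levels, and the spacing of the numbers leaves only a coarse class. All 3 members fell in the class with a median from 4 to 8, which held 61.3% of all probe sets. Rhox5 fell in the class of at least 8, as did 16 of 18 pluripotency markers of embryonal carcinoma cells, such as Pou5f1.

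The labels were checked on Rara, which had 1 probe set. It was higher in the arrays labelled RARaKO, by 0.36 ± 0.09 (SE) in atRA (adjusted p = 0.0488) and by 0.90 ± 0.09 in vehicle (adjusted p = 1.50e-04, limma). This goes against a loss of the transcript. Where the probe set lies relative to the deleted part is not given, so it may check nothing, and every genotype direction below rests on labels that this check did not bear out. The treatment check was positive in both genotypes: Cyp26a1, which encodes a retinoic acid hydroxylase, rose by 1.38 ± 0.08 in the arrays labelled RARaKO and by 1.35 ± 0.08 in WT arrays. Of 16 measured genes on a list of established retinoic acid targets, atRA raised 9 in the arrays labelled RARaKO and 11 in WT arrays, and lowered none. Here and below a gene is called changed at an adjusted p under 0.05 (limma, Benjamini-Hochberg over all 37600 probe sets that are not controls).

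Because promoter methylation is known to silence Rhox genes, the 250 bases before the annotated start are printed for the measured Rhox genes that the RefSeq promoter table (GRCm38.p6) holds, Rhox13 and Rhox5, with CG dinucleotides in capitals.
Rhox13, chrX:38120590-38120839, plus strand: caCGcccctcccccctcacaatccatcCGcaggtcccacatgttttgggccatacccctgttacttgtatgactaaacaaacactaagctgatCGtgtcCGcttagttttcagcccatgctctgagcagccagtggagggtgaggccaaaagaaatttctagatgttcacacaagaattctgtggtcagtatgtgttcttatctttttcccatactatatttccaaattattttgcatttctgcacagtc
Rhox5, chrX:37754358-37754607, plus strand: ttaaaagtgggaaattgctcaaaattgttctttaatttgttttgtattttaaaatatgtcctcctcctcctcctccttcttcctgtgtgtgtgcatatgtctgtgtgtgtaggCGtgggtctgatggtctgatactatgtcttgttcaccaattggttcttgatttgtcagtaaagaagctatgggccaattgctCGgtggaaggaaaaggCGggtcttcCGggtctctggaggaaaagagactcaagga
Each held 4 CG dinucleotides, against a median of 6 over the 32851 promoters of the table, of which 37.8% held fewer than 4. Neither held the exact letters AGGTCA on either strand, whereas 14.0% of all promoters did. These letters are a form of the half-site that retinoic acid receptors are known to bind. Other forms of the half-site were not searched for, so whether these promoters hold any half-site was not tested. Methylation was not measured in these samples.

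In atRA, Rhox6 and Rhox9 were higher in the arrays labelled RARaKO than in WT arrays, at ratios of 1.86 and 1.80, and Rhox13 was not called. Rhox6 had values of 0.40, 0.34 and 0.40 in the arrays labelled RARaKO, against -0.57, -0.52 and -0.45 in WT arrays (sets 2, 3 and 4, log2 relative to the probe set's median). All 3 arrays labelled RARaKO lay above all 3 WT arrays, with a gap of 0.79 between the groups. The difference was 0.89 ± 0.07 (SE) on the log2 scale, a ratio of 1.86 with a 95% interval of 1.67 to 2.07 (n = 3 arrays each, limma adjusted p = 4.06e-05). It ranked 91 in size among the 37600 probe sets.

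Rhox9, the next measured gene after Rhox6 in the cluster, had values of 0.46, 0.19 and 0.47 in the arrays labelled RARaKO, against -0.79, -0.44 and -0.19 in WT arrays. The groups did not overlap, although the WT arrays were spread from -0.79 to -0.19. The difference was 0.85 ± 0.13, a ratio of 1.80 with a 95% interval of 1.49 to 2.19 (limma adjusted p = 0.00313, n = 3 arrays each), and ranked 103. The call was kept when any single array was left out (adjusted p from 0.00176 to 0.0151). It was lost without the 4 arrays of set 2 (0.65 ± 0.12, adjusted p = 0.0559) and without those of set 3 (0.96 ± 0.17, adjusted p = 0.0530).

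Rhox13, the germ cell member, had values of 0.06, 0.20 and 0.24 in the arrays labelled RARaKO, against -0.28, -0.05 and -0.07 in WT arrays. These groups did not overlap either, with a gap of 0.11. The difference of 0.30 ± 0.11 (95% interval 0.07 to 0.53, a ratio of 1.23) did not pass the test (limma adjusted p = 0.159, n = 3 arrays each). Whether it differed from those of Rhox6 and Rhox9 was not tested.

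So 2 of the 3 members were called higher in atRA. Of all probe sets 1.61% were called higher there and 3.12% in either direction (6.23% with the set number as a block). The members had been picked for being higher in RARaKO than in WT cells in vehicle. Few probe sets were called for atRA in either genotype, so the calls in atRA are not independent of that choice. The 3 members had groups that did not overlap, as did 9.9% of probe sets in that direction. An exact permutation test of 3 arrays against 3 cannot give a p below 0.1, and gave 0.1 for each member.

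**Figure D1:**
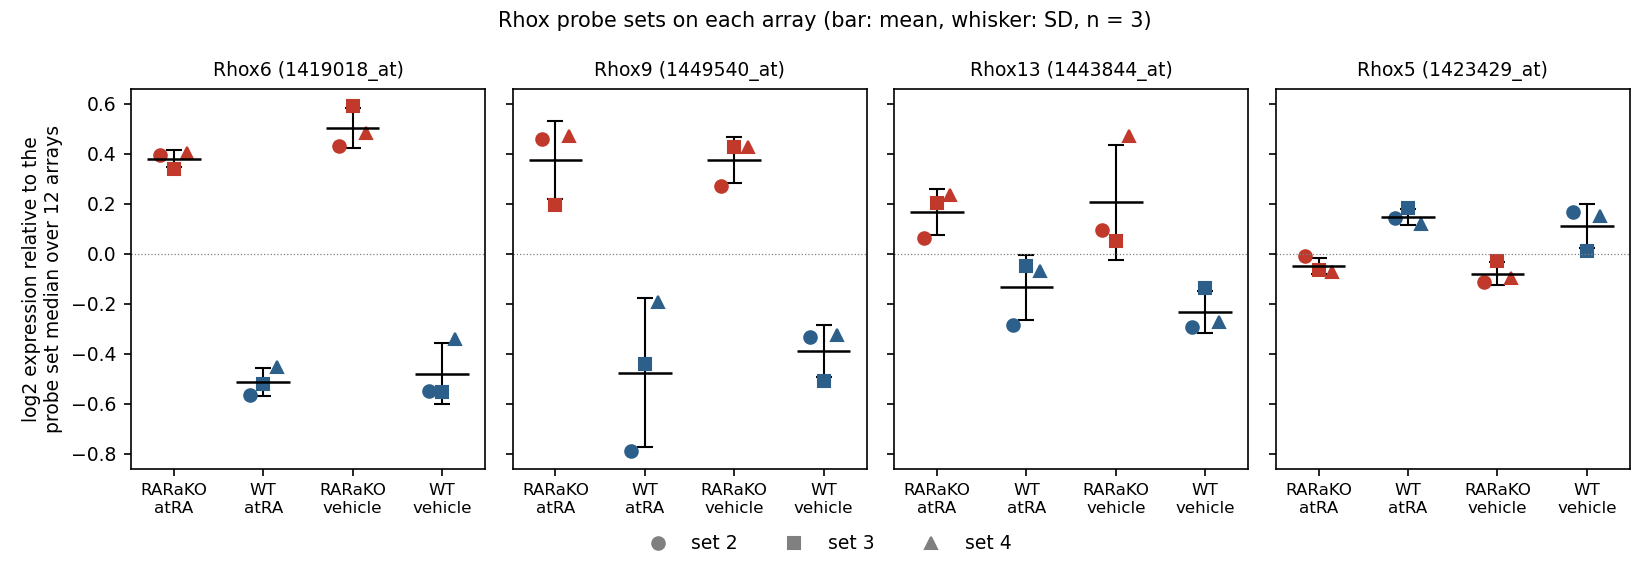
Expression of the Rhox probe sets on each of the 12 arrays, in log2 units relative to the probe set's median, by group. Symbols mark the set, the horizontal bar is the mean and the whisker the SD of 3 arrays. The red arrays labelled RARaKO lie above the blue WT arrays for Rhox6, Rhox9 and Rhox13 and below them for Rhox5, in atRA and in vehicle.

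The vehicle arrays gave the contrast by which the genes were picked. Rhox6 had values of 0.43, 0.59 and 0.48 in the arrays labelled RARaKO, against -0.55, -0.55 and -0.34 in WT arrays, a difference of 0.98. Rhox9 had values of 0.27, 0.43 and 0.43 in the arrays labelled RARaKO, against -0.33, -0.51 and -0.32 in WT arrays, a difference of 0.76. Rhox13 had values of 0.09, 0.05 and 0.47 in the arrays labelled RARaKO, against -0.29, -0.14 and -0.27 in WT arrays, a difference of 0.44. The high value of set 4 stood apart from the other two arrays labelled RARaKO for Rhox13. In this contrast 1.84% of probe sets were called higher, 1.16% lower and 3.01% in either direction (5.24% with the set number as a block), and 9.69% had groups that did not overlap in that direction. Across both media the lowest of the 6 arrays labelled RARaKO exceeded the highest of the 6 WT arrays by 0.68 for Rhox6, 0.39 for Rhox9 and 0.10 for Rhox13. These arrays include the vehicle arrays that picked the members, so the gaps are partly fixed by that choice. The share of all probe sets parted in this way was not counted.

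Measures of RNA quality were set beside these values. The difference between 5′ and 3′ probe sets of 4 control transcripts ran from 0.0012 to 0.0897 in the arrays labelled RARaKO in atRA and from -0.0248 to 0.0178 in WT arrays in atRA, so these groups overlapped. In vehicle it ran from -0.0227 to 0.132 in the arrays labelled RARaKO and from -0.123 to -0.0844 in WT arrays, with no overlap. Its part in the vehicle values was not tested. The arrays were made from bulk RNA, in which more expressing cells and more RNA per cell cannot be told apart.

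The Rhox genes did not pass the test for a response to atRA in either genotype. In the arrays labelled RARaKO the difference of atRA from vehicle was -0.12 ± 0.07 for Rhox6 (95% interval -0.28 to 0.04), 0.00 ± 0.13 for Rhox9 (-0.28 to 0.28) and -0.04 ± 0.11 for Rhox13 (-0.27 to 0.20). In the arrays labelled RARaKO the atRA values of Rhox6 all lay below its vehicle values, by a gap of 0.03, while those of Rhox9 and Rhox13 overlapped, and 5.4% of probe sets had groups parted in that direction. In WT arrays the difference was -0.03 ± 0.07 for Rhox6 (-0.19 to 0.12), -0.09 ± 0.13 for Rhox9 (-0.37 to 0.19) and 0.10 ± 0.11 for Rhox13 (-0.13 to 0.33). By limma 0 of 3 members were called in either genotype, and 0 of 3 had an unadjusted p under 0.05. An unadjusted p under 0.05 was found for 3083 of all 37600 probe sets in the arrays labelled RARaKO and for 2734 in WT arrays. Of all probe sets, 0.263% were called for atRA in the arrays labelled RARaKO and 0.569% in WT arrays. With the set number as a block these shares were 0.444% and 0.902%, and still 0 of the 3 members were called. These comparisons share the vehicle arrays with the contrast that picked the genes.

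The atRA response in the arrays labelled RARaKO minus that in WT arrays was -0.09 ± 0.10 for Rhox6, 0.09 ± 0.18 for Rhox9 and -0.14 ± 0.15 for Rhox13. The intervals reached from -0.31 to 0.13, from -0.31 to 0.48 and from -0.47 to 0.19. By limma 0.0% of probe sets were called for this difference, and 1168 of 37600 had an unadjusted p under 0.05, the members not among them. With 3 arrays a group, no difference between genotypes in the atRA response of the 3 genes was detected, within these intervals.

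**Figure D2:**
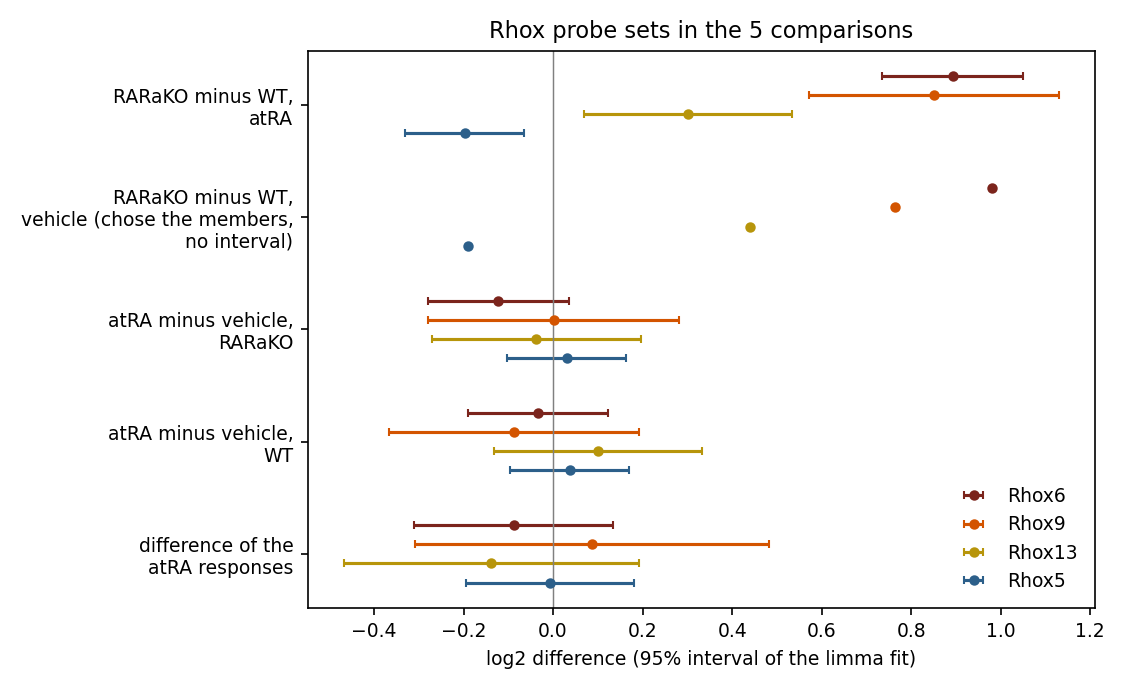
Differences of the Rhox probe sets in the 5 comparisons, in log2 units. The bars are 95% intervals of the limma fit, and the genotype contrast in vehicle, which picked the genes, is drawn without them. In atRA the genotype differences of Rhox6 and Rhox9 stand at 0.89 and 0.85, while each atRA difference and each difference of responses has an interval that holds 0.

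Rhox5 was the only other of 33 further Rhox symbols with a probe set of its own here. It had values of -0.01, -0.06 and -0.07 in the arrays labelled RARaKO in atRA, against 0.14, 0.18 and 0.12 in WT arrays in atRA. Here the arrays labelled RARaKO were the low ones, and the groups did not overlap, as for 10.5% of probe sets in that direction. The difference was -0.20 ± 0.06 (95% interval -0.33 to -0.06, limma adjusted p = 0.109), which did not pass the test that 1.51% of probe sets passed as lower. When only the 14431 probe sets of the highest level class were tested, its adjusted p was 0.0371. In vehicle its values were -0.11, -0.03 and -0.10 in the arrays labelled RARaKO and 0.17, 0.01 and 0.15 in WT arrays, again with the arrays labelled RARaKO below.

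The genes that border the cluster on the X chromosome were examined next. In RefSeq order the measured genes ran Rnf113a1, Gm9, Rhox5, Rhox6, Rhox9, Rhox13, Zbtb33 and Lamp2. Of the 10 measured genes on each side of the Rhox genes, 0 of 20 were called higher in atRA and 1 was called lower. The lower one was Nkap, a transcriptional regulator (-0.29 ± 0.06, limma adjusted p = 0.0262), of whose 3 probe sets 1 was called. The differences of these 20 genes ran from -0.29 to 0.26 with a median of -0.04, so Rhox6 and Rhox9 lay above every one of them. Rhox6 and Rhox9, unlike these genes, had been picked for being higher in vehicle, so their place above them is partly fixed by that choice. Gm9, next to Rhox5, was the highest of the 20. On the list of 23 measured flanking genes fixed for this work, 0 were called higher and 1 lower. An unadjusted p under 0.05 was found for 5 of the 23, and for 6742 of all 37600 probe sets.

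**Figure D3:**
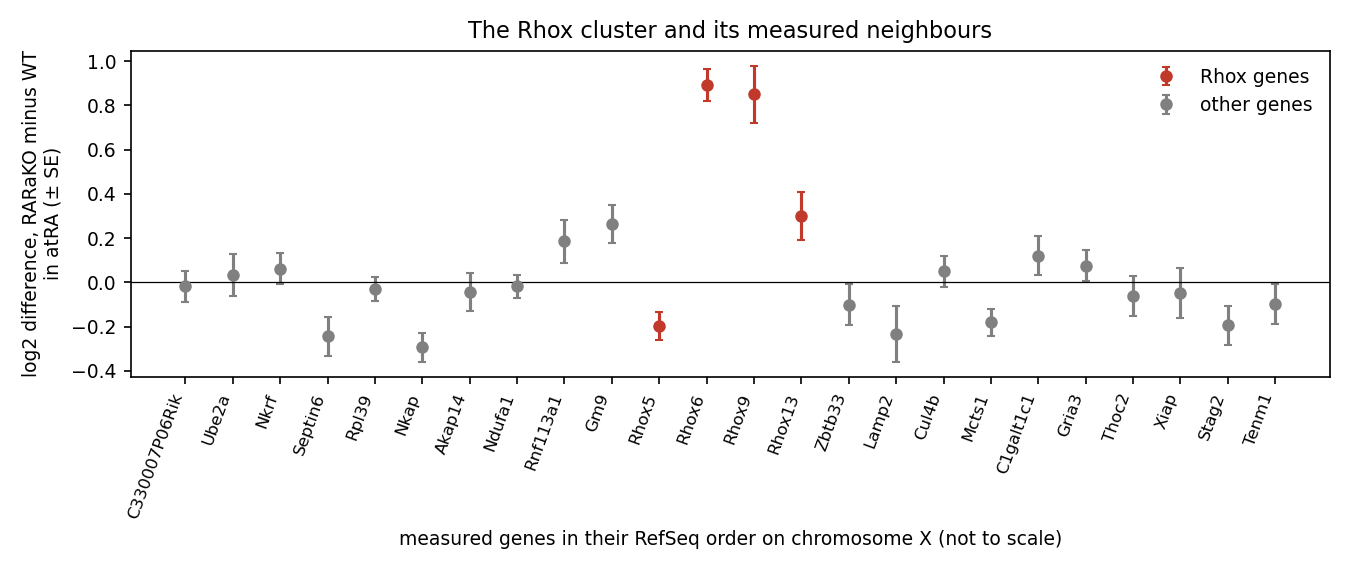
Genotype difference in atRA for the Rhox genes (red) and the 10 measured genes on each side (grey), in RefSeq order along the X chromosome, as log2 difference ± SE. Rhox6 and Rhox9, which were picked for being higher in vehicle, stand at 0.89 and 0.85, and the flanking genes lie between -0.29 and 0.26.

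On the X chromosome as a whole, 13 of 528 other genes were called higher in atRA and 12 lower. Among 531 X-linked genes ordered by the size of the difference, Rhox6 ranked 2, Rhox9 ranked 3, Rhox13 ranked 62 and Rhox5 ranked 124. The first was Tex13b, a testis-expressed gene, which was lower in the arrays labelled RARaKO by both of its probe sets (-1.54 ± 0.08). The ranks of Rhox6, Rhox9 and Rhox13 are partly fixed by their choice in vehicle. Of 11 measured X-linked reproductive genes outside the cluster, 1 was higher and 1 lower, with a median of 0.04 against 0.00 over all probe sets. The higher one was Mageb16, a gene of the Mage family (0.78 ± 0.09), and the other was Tex13b. Tex13a, another testis-expressed gene (0.16 ± 0.07), and Magea4 (0.19 ± 0.10) were not called.

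Germ cell genes that are known to be silenced by promoter methylation in somatic cells were taken as the class most like the Rhox genes. Of 28 measured genes, 4 were called higher and 1 lower for RARaKO against WT in atRA, and the median difference was 0.09 against 0.00 over all probe sets. The 4 were Rpl39l, a testis-enriched ribosomal protein gene (2.23 ± 0.11), Syce1, a central element of the synaptonemal complex (0.61 ± 0.09), Tex19.1, which limits retrotransposons in germ cells (0.58 ± 0.11), and Sycp1, a transverse filament of the same complex (0.43 ± 0.10). Piwil2, which binds piRNAs, was the lower one (-0.29 ± 0.07). Other defining genes of the list were not called, among them Ddx4, the germ cell helicase (-0.05), Sycp3, of the synaptonemal complex (-0.19), and Mael, of the piRNA pathway (-0.17). Sycp2 was not called either, at 0.70 (limma adjusted p = 0.118). With the set number as a block 6 of the 28 were called higher, Sycp2 among them (limma adjusted p = 0.00682), and 1 lower. Dazl, an RNA-binding regulator of germ cells, had a difference of 0.44 ± 0.11 (limma adjusted p = 0.0605), and the second of its 2 probe sets was called at 0.52. By limma 0 of the 28 were called for atRA in either genotype, and 2 in the arrays labelled RARaKO and 1 in WT arrays had an unadjusted p under 0.05. For genotype in atRA 10 of the 28 had an unadjusted p under 0.05, as did 6742 of all 37600 probe sets. Several of these genes were known from earlier results to be higher in vehicle, so their direction is not independent evidence.

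**Figure D4:**
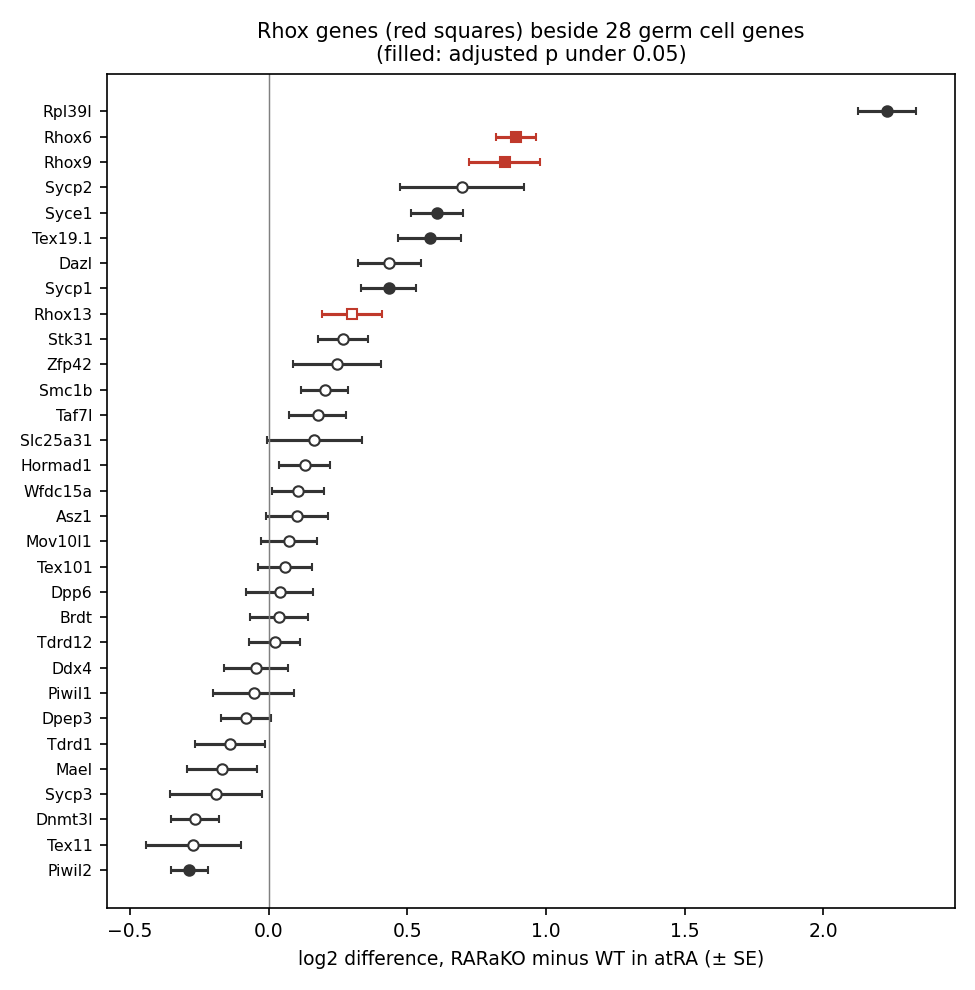
Genotype difference in atRA for Rhox6, Rhox9 and Rhox13 (red squares) and 28 germ cell genes (black circles), as log2 difference ± SE, with filled symbols for an adjusted p under 0.05. Rpl39l stands above the Rhox genes at 2.23, and most of the list lies between -0.3 and 0.3.

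Among 22 measured genes of primordial germ cells and early spermatogonia, the same comparison in atRA called 2 higher and 1 lower. Sohlh2, a transcription factor of spermatogonia, differed by 0.63 ± 0.09 and Stra8, the retinoic acid target that licenses meiosis, by 0.42 ± 0.09. Dnd1, needed for the survival of primordial germ cells, was lower (-0.30 ± 0.07). Stra8 was also called higher for atRA, at 0.75 in the arrays labelled RARaKO and 0.94 ± 0.09 in WT arrays. Id4, a marker of spermatogonial stem cells, was lower for atRA, at -0.45 ± 0.08 in the arrays labelled RARaKO (limma adjusted p = 0.0444) and at -0.63 ± 0.08 in WT arrays (limma adjusted p = 0.00276). The median of the list was 0.02.

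The machinery of DNA methylation and H3K9 silencing showed no call for genotype in atRA by limma without a block. Of 29 measured genes 0 were higher or lower, with a median of 0.01. An unadjusted p under 0.05 was found for 7 of the 29 and for 6742 of all 37600 probe sets. With the set number as a block 1 was called higher, Tet1 (0.49, limma adjusted p = 0.0292). The block called 2 lower, Mbd2 (limma adjusted p = 0.0288) and Uhrf2 (limma adjusted p = 0.0426). Dnmt1, the maintenance methyltransferase, differed by -0.02 and Dnmt3b, a de novo methyltransferase, by 0.00. Dnmt3l, the cofactor of de novo methylation in germ cells, differed by -0.27 ± 0.09 (limma adjusted p = 0.124). Without the block Mbd2, a protein that binds methylated CG sites, differed by -0.30 ± 0.10 (limma adjusted p = 0.127). Its 2 probe sets, at -0.30 and -0.12, were not called in that fit. Uhrf2, a relative of the maintenance factor Uhrf1, differed by -0.24 ± 0.06 in the same fit (limma adjusted p = 0.0669). Mga, a subunit of a Polycomb complex that represses germ cell genes, differed by 0.78 ± 0.29 at the 1 of its 5 probe sets counted here (limma adjusted p = 0.173). The 5 probe sets of Mga ran from 0.07 to 0.78, and none was called.

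Markers of the cell types in which Rhox genes are usually found were counted too. Of 17 measured trophoblast and placenta markers, 0 were called higher for RARaKO against WT in atRA and 1 lower, the transcription factor gene Gata3 (-0.57 ± 0.11). Of 12 measured Sertoli and steroidogenic markers, 0 were higher and 3 were lower, the transcription factor genes Nr5a1 (-0.54 ± 0.08) and Wt1 (-0.56 ± 0.11) and the steroidogenic enzyme gene Cyp11a1 (-0.28 ± 0.06). Of the 2 probe sets of Nr5a1 only 1 was called, and the other stood at -0.13. Both probe sets of Cyp11a1 were called, at -0.61 and -0.28. By limma 0 of 18 pluripotency markers, 0 of 18 extraembryonic endoderm markers and 0 of 9 fibroblast markers were called for genotype in atRA. At an unadjusted p under 0.05 there were 3, 1 and 1, beside 6742 of all 37600 probe sets. The part of any of these cell types in the Rhox values was not tested.

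The profiles of the 3 members over the 12 arrays were compared last. Since 6 of the 12 are the vehicle arrays that picked the members, the values below are partly fixed by that choice and are a description only. Pearson's r over the 12 arrays, which share 4 groups, was 0.95 between Rhox6 and Rhox9, 0.81 between Rhox6 and Rhox13 and 0.82 between Rhox9 and Rhox13. Within groups, after each group's mean was taken off, it was 0.59, -0.09 and 0.28. With Rhox5 it was -0.87 for Rhox6, -0.81 for Rhox9 and -0.83 for Rhox13 over the 12 arrays, and 0.45, 0.28 and -0.44 within groups. Differences between groups made up 98.1% of the variance of Rhox6, 88.1% for Rhox9, 71.6% for Rhox13 and 83.4% for Rhox5.

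The genes outside the family with the most similar profiles, taken over all 12 arrays and so also over those that picked the members, lay mostly on chromosome 4. For Rhox6 they were Ttc4, Ppcs, Toe1, Tusc1 and Czib (r of 0.99 for each over 12 arrays), all 5 on chromosome 4. For Rhox9 they were Cap1, Akr1a1, Ttc4, Tmem218 and Nsun4, of which 4 are on chromosome 4, and r was 0.97 for the first 4 and 0.96 for Nsun4. For Rhox13 they were Zpr1 (0.98), H2ac19, Faah, Dmrtb1 (0.93) and Mutyh (0.92), of which 3 are on chromosome 4. None of these genes is on the X chromosome, and 6.17% of the probe sets with a known chromosome are on chromosome 4. In atRA 131 of 1011 genes on chromosome 4 were called higher in the arrays labelled RARaKO and 9 lower, against 131 higher and 259 lower of 14833 genes on the other autosomes. The most opposite profiles were those of Tex13b (-0.98), Gab1 (-0.98) and Ptp4a2 (-0.98) for Rhox6, of Paip1, Tmeff1 and Ptp4a2 for Rhox9, and of Cbfb, Trp53bp1 and Anapc16 for Rhox13.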

How the data were processed

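The authors made the deposited values, taken here as log2 although no source states the base, with GCRMA, per the submitters' processing notes (version not given). Each probe set's deposited values were found to have a median of 0 across the arrays, and nothing in the labels mentions that centring. The class of the lost level was read from the spacing of the deposited numbers, with a tolerance of 0.25 of a step. Probe sets were named from the platform annotation: 30488 carried 1 symbol (16509 genes), 784 several and 6328 none. Chromosome and order came from RefSeq (GRCm38.p6).

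All 12 arrays, with 61 control probe sets left out, were fitted in 1 model with a mean per group by lmFit and eBayes of limma 3.58.1 (R 4.3.3), two-sided, with 8 degrees of freedom left by the fit and 4.6 added by the variance prior. Deviations of arrays with the same set number in the labels correlated over 0.1 in 3 of 3 sets for atRA against vehicle in each genotype. They did so in 3 of 3 for genotype in vehicle and in 2 of 3 for genotype in atRA. Of 36 pairs of arrays with different set numbers, 4 correlated over 0.1. The arrays may thus be paired by set, which no label states. The standard errors and intervals given here come from the fit without a block. No 2 arrays held identical values, and their number limits the precision. The scripts were tested on simulated data. Where a gene had several probe sets, 1 stood for it: the least ambiguous type, then the lowest identifier. Named were every Rhox probe set and, per member, the 5 most and 3 least similar profiles. Per list up to 4 genes of smallest p for genotype in atRA and up to 2 for atRA against vehicle were named, called or not. Some that were not called, or whose list only served as a check, are left unnamed. Piwil2, Ddx4, Sycp2, Sycp3, Mael, Dnmt1, Dnmt3b, Tet1 and Gm9 were chosen after their values were seen. Members and lists were chosen with earlier results of these data known. Alternatives changed the block, array weights, normalization, variance prior, arrays in the fit and the level class.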

Additional observations from a re-analysis of the deposited data

How the results depend on the processing

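The alternatives were a replicate block by set number, array weights, quantile normalization, subtraction of each array's median, a robust variance prior, a fit of the 6 arrays of a comparison alone, and leaving out each of the 12 arrays. Leaving out a whole set (4 arrays) was chosen after seeing the data. RARaKO minus WT in atRA kept its call for Rhox6 under all of them and for Rhox9 under all but the loss of set 2 or set 3, where Rhox9 ran from 0.65 to 0.99 over all leave-outs. Rhox13 was called under none of them (adjusted p from 0.0730 to 0.374 over the leave-outs and from 0.0767 to 0.181 otherwise). Where Rhox values near 0 changed sign, they were not called. The atRA difference in RARaKO for Rhox9 was -0.042 after quantile normalization and -0.0031 after median subtraction, and that for Rhox13 was 0.036 with array weights. Over the leave-outs, the atRA difference in RARaKO ran from -0.094 to 0.12 for Rhox9, from -0.13 to 0.094 for Rhox13 and from -0.0057 to 0.064 for Rhox5. That in WT ran from -0.069 to 0.036 for Rhox6, from -0.23 to 0.098 for Rhox9 and from -0.029 to 0.072 for Rhox5. The difference of responses ran from -0.16 to 0.0075 for Rhox6, from -0.19 to 0.28 for Rhox9, from -0.24 to 0.012 for Rhox13 and from -0.075 to 0.093 for Rhox5. Rhox5 in atRA passed the test when only the highest level class was tested (-0.20, fewer probe sets tested). That class does not hold the members, so the filter gave no value for them, and with 1 probe set a gene there was no mean over probe sets to try.

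Counts of called probe sets moved more. RARaKO minus WT in atRA gave 1173, 592 with its 6 arrays alone and 320 to 1124 over the leave-outs (532 without WT atRA of set 4). The atRA difference in RARaKO gave 99, 14 with its 6 arrays alone and 2 to 88 over the leave-outs. That in WT gave 214, 382 with array weights and 40 to 226 over the leave-outs. RARaKO minus WT in vehicle gave 1131, 2071 with array weights and 217 to 1426 over the leave-outs. Some of these fits hold fewer arrays, and why the counts moved was not tested. With the replicate block the counts were 2344, 167, 339 and 1972 in the same order, and no Rhox call changed (Rhox9 in atRA 0.85, limma adjusted p = 0.00166). Calls of some genes on the other lists did change, among them Tet1, Mbd2, Uhrf2 and Sycp2 for genotype in atRA. Whether the set numbers pair the arrays of RARaKO minus WT in atRA is less clear. Deviations in set 4 correlated at 0.0375 there, although each of the 12 arrays correlated best with an array of its own number. The atRA arrays of set 4 correlated with the vehicle array of their own genotype at 0.497 in RARaKO and 0.101 in WT. The RARaKO atRA array of set 4 also correlated at 0.124 with the WT atRA array of set 3. So the sets may or may not pair the arrays of this contrast. For atRA against vehicle the block called 10 established retinoic acid targets in RARaKO and 10 in WT. Without absolute values, signal over background is unknown, and 3 arrays a group limit the precision.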
